A study of Mus musculus with 3 samples.

Results

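Plasma cells are the antibody-secreting end stage of the B lineage, and 395 of the 19762 bone marrow cells that passed the cell filter met their definition. A cell counted as a plasma cell if it held at least 1000 UMIs (distinct mRNA tags), at least 500 genes and at most 10% mitochondrial UMIs, if the constant-region genes Igkc, Iglc2, Igha, Ighm and Ighg2b made up at least 5% of its UMIs, and if it held at least 5 UMIs of Jchain and at least 2 of Mzb1, Derl3 and Xbp1 together. These immunoglobulin, Jchain, Mzb1, Derl3 and Xbp1 values chose the cells and are given below as description only. A plasma cell arises when an activated B cell shuts down its B cell genes and expands the endoplasmic reticulum (ER), where immunoglobulin chains are folded, paired and glycosylated before export. The heavy chain constant gene sets the class of the antibody: IgM is the class made before switching, IgA is the main class of mucosal surfaces and IgG of the circulation. Long-lived plasma cells settle in bone marrow, and many of those in mouse marrow come from the gut and make IgA.

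Single-cell RNA sequencing (10x 3′ chemistry) was carried out on lineage-negative mouse bone marrow, with 1 library for each of 3 genotypes. The first was Lztr1fl/fl;Mx1Cre+ (Lztr1 knockout), the second Rit1M90I/+;Mx1Cre+ (Rit1-M90I), and the third Rit1M90I/+Mx1Cre- (control, called wild type in its title). Lztr1 is the substrate adaptor of a ubiquitin ligase that removes Rit1, a small GTPase of the Ras family, and the M90I change keeps Rit1 from being removed. All 3 genotypes, the control included, were given 3 doses of pIpC at 12 mg/kg at 8 weeks of age, and marrow was taken 4 weeks later; pIpC is a double-stranded RNA that raises interferon and so switches on Mx1-Cre in blood cells and in other interferon-responsive tissues. The control carries no Cre, so an effect of Cre cannot be told apart from one of the alleles. The sort kept live cells negative for CD3, CD11b, Gr1, B220 and Ter119; most plasma cells carry little B220, and cells that still carry it were removed, so the shares below are shares of this gate. How many animals went into a library is not stated in the labels. With 1 library per genotype no test between genotypes was possible, and every interval on a share or level covers counting error only, at 95%.

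The filter kept 2422, 9817 and 7523 barcodes in the Lztr1 knockout, Rit1-M90I and control libraries, which held 30398349, 88560148 and 67541728 UMIs before filtering. No plasma cell barcode was shared between libraries, and each pair of libraries shared between 2 and 12 of all kept barcodes. Lztr1 itself gave 2 UMIs in Lztr1 knockout plasma cells, 34 in Rit1-M90I and 12 in control plasma cells, or 7.03, 27.5 and 16.8 CPM. CPM here scales the UMIs of a gene to a common total of UMIs outside the immunoglobulin loci; since 3′ tags count transcripts whatever their length, no length correction applies. A 3′ tag can lie outside the deleted exons, so this checks neither the deletion nor the labels. Rit1 gave 3, 15 and 4 UMIs in the same order.

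The values the definition used were as follows. The lowest immunoglobulin share inside was 11.8% of UMIs in the Lztr1 knockout, 7.65% in Rit1-M90I and 8.05% in the control, while the highest just outside, among cells that met the other criteria, was 1.77%, 4.83% and 3.57%. Immunoglobulin genes took 50.7%, 51.5% and 53.1% of all plasma cell UMIs in these libraries, and the median cell held 733.5, 510.5 and 627 UMIs of Jchain, the small chain that joins IgA and IgM into polymers. The lowest Jchain count of a plasma cell was 55, 19 and 76 UMIs, and the lowest count of Mzb1, Derl3 and Xbp1 together was 4, 2 and 4 UMIs, so that in Rit1-M90I it lay on the threshold. In erythroid cells, which should lack Jchain, at least 1 UMI was seen in 18.3%, 35.9% and 20.2% of cells at median depths of 20249, 17825.5 and 18835 UMIs, and immunoglobulin made up at most 0.026% of the summed UMIs of such cells in any library. Single erythroid cells reached up to 3, 8 and 32 Jchain UMIs, and the constant-region genes of the definition up to 0.141%, 1.69% and 3.04% of their UMIs. The median plasma cell held 12716.5, 10891 and 11243 UMIs and 1747, 1512.5 and 1483 genes.

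The label was checked against genes that the definition did not use. The comparison group was 121 mature B cells (7 in the Lztr1 knockout, 77 in Rit1-M90I and 37 in the control), chosen by B cell and MHC class II genes; since both groups were chosen by their RNA, the values are description. Prdm1, the repressor that ends the B cell program, measured 130.0 CPM in Lztr1 knockout, 119.0 in Rit1-M90I and 108 in control plasma cells, against 0, 6.5 and 0 in mature B cells of the same libraries. Tnfrsf17, the survival receptor BCMA, measured 334, 322 and 362 CPM in plasma cells and was at 0 in all 3 mature B cell groups. Sdc1, which encodes the plasma cell surface proteoglycan CD138, measured 319.7, 264 and 281 CPM against 0, 6.5 and 14.5. The B cell regulator Pax5 measured 0, 2.4 and 2.8 CPM in plasma cells against 416, 185 and 290.1 in mature B cells. H2-Aa, an MHC class II chain that was also used to choose the mature B cells, measured 38.6, 30.0 and 39.2 CPM in plasma cells. With the genes of the definition left out, 26 of 32 measured genes for ER chaperones and folding enzymes lay over 2-fold above mature B cells in all 3 libraries. So did 8 of 11 ER-associated degradation genes, 11 of 18 translocation and signal peptide genes and 9 of 16 Golgi and secretory traffic genes. Of 20 nuclear genes of oxidative phosphorylation 1 did, and of 20 ribosomal protein genes 0. The lists of plasma cell genes were mixed. Of 14 measured plasma cell regulators, 6 lay over 2-fold above mature B cells in all 3 libraries and 4 over 2-fold below. Of 22 plasma cell surface and survival genes, 7 lay above by that mark and 2 below. The share over all genes was not determined. In the 7 Lztr1 knockout mature B cells, 10 of 34 genes of the folding list had no UMI, which makes the 2-fold mark easy to pass.

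Plasma cells made up 1.73% of kept Lztr1 knockout cells (42 of 2422; 1.25 to 2.34%), 2.28% of Rit1-M90I cells (224 of 9817; 2.0 to 2.60%) and 1.71% of control cells (129 of 7523; 1.43 to 2.03%). The share in the Lztr1 knockout was 1.01 times that in the control (interval 0.716 to 1.43). The share in Rit1-M90I was 1.33 times that in the control (1.07 to 1.65), an interval that covers counting error but not differences between animals. Some plasma cells also carried RNA of another lineage or very many genes. At least 10 UMIs of neutrophil, basophil, erythroid, T cell or monocyte markers were held by 3 Lztr1 knockout, 42 Rit1-M90I and 14 control plasma cells. The markers were Elane, Mpo and Prtn3 for neutrophils, Mcpt8, Prss34 and Cpa3 for basophils, and Car1, Klf1 and Gata1 for erythroid cells. For T cells they were Cd3e, Cd3d, Cd3g, Trac and Trbc2, and for monocytes Csf1r, C1qa, C1qb and Adgre1. Cells with such markers or with over 3000 genes are called second-lineage cells here, although the gene number alone shows no other lineage. They numbered 4 of 42 plasma cells in the Lztr1 knockout (9.52%), 45 of 224 in Rit1-M90I (20.1%) and 16 of 129 in the control (12.4%). Without them the ratio of Rit1-M90I to control was 1.21 (0.961 to 1.53), from shares of 1.82% and 1.5%, and that of Lztr1 knockout to control 1.04 (0.725 to 1.5). Whether these barcodes were droplets with more than 1 cell was not tested, and the scrublet doublet caller marked 0, 10 and 2 plasma cells in the 3 libraries.

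The second-lineage cells were of several kinds. Neutrophil markers reached 10 UMIs in 3 Lztr1 knockout, 19 Rit1-M90I and 10 control plasma cells, and erythroid markers in 0, 12 and 3. Basophil markers reached 10 UMIs in 7 Rit1-M90I plasma cells and in none of the other two libraries. These cells held more RNA outside the immunoglobulin loci than the others, with medians of 17042 against 5353.5 UMIs in the Lztr1 knockout, 8920 against 4110 in Rit1-M90I and 13348 against 4167 in the control. Cells with at least 10 UMIs of genes of the G2 and M phases of cell division numbered 2, 17 and 7, and 2, 16 and 6 of them were second-lineage cells. The remaining plasma cells thus held 0, 1 and 1 cell with such a signal. Results that rest on these cells are given below with and without them. Leaving them out lowers the marker genes that chose them by construction, so the fall of those genes is description only.

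IgA was the leading class in every library. A cell was given a class if at least 70% of its heavy chain constant UMIs, and at least 5 UMIs, came from that class. IgA cells numbered 28 of 42 in the Lztr1 knockout (66.7%; 50.5 to 80.4%), 158 of 224 in Rit1-M90I (70.5%; 64.1 to 76.4%) and 100 of 129 in the control (77.5%; 69.3 to 84.4%). IgG cells numbered 9 (21.4%; 10.3 to 36.8%), 35 (15.6%; 11.1 to 21.1%) and 15 (11.6%; 6.66 to 18.5%). IgM cells numbered 4 (9.52%; 2.66 to 22.6%), 27 (12.1%; 8.10 to 17.1%) and 14 (10.9%; 6.06 to 17.5%). For each class the intervals of the 3 libraries overlapped, and a difference in class make-up was not tested.

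**Figure D1:**
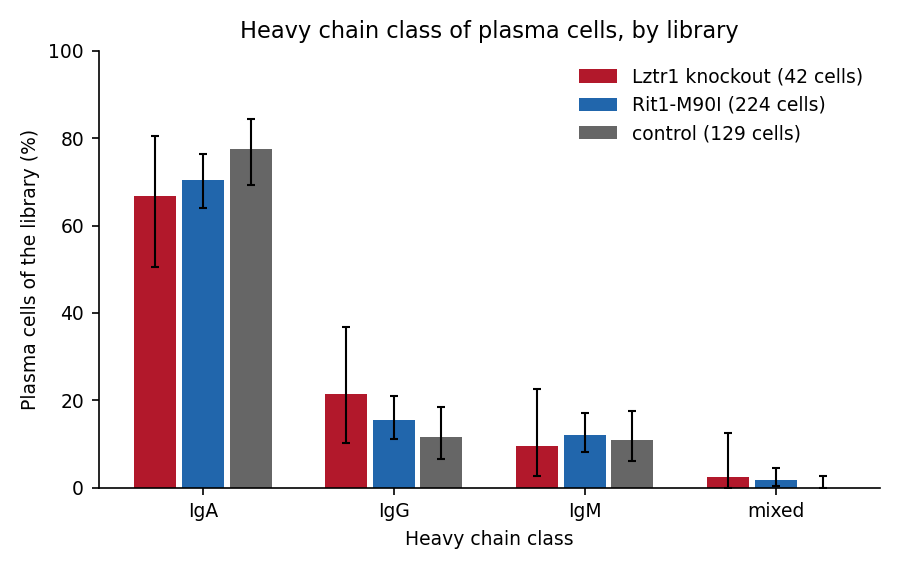
Share of plasma cells (%) by heavy chain class in the Lztr1 knockout (42 cells), Rit1-M90I (224 cells) and control (129 cells) libraries; bars are shares and lines exact 95% binomial intervals, which cover counting error only. IgA holds 66.7%, 70.5% and 77.5% of the cells, and the intervals of the 3 libraries overlap in every class.

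The class of a cell was rarely in doubt. The median IgA, IgG or IgM cell of each library drew over 99% of its heavy chain constant UMIs from its own class, and only 1 Lztr1 knockout, 4 Rit1-M90I and 0 control cells were mixed. No IgD or IgE cell was found, which in the 129 control cells allows a share of up to 2.82%. Among IgG cells the leading subclass gene was Ighg2b in 5 of 9 Lztr1 knockout and 19 of 35 Rit1-M90I cells, and Ighg2c in 8 of 15 control cells; Ighg1 led in 2, 2 and 1 cells and Ighg3 in none. Kappa was the light chain of 92.9%, 96.0% and 98.4% of the cells. Jchain took 10.8%, 9.76% and 11.7% of non-immunoglobulin UMIs in IgA cells, 6.33%, 6.64% and 8.78% in IgG cells and 9.52%, 7.90% and 5.97% in IgM cells. The definition required Jchain, so IgG cells without it would not have been counted.

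The variable (V) gene of the heavy chain could be called in 33 of 42 Lztr1 knockout, 175 of 224 Rit1-M90I and 102 of 129 control plasma cells. The call went to the V gene with the most UMIs, if it passed a minimum count and share. Calls rest on few UMIs, as the median plasma cell held 8.5, 6 and 6 heavy V UMIs in these libraries. Kappa cells also held a median of 4, 4 and 6 UMIs of the lambda V gene Iglv1, whose source was not tested. V genes of one family are near-identical, so 3′ tags can be shared between copies, and the junction that tells clones apart is not in these counts. Across the libraries 24, 52 and 45 heavy V genes were seen. Cells that shared both their heavy and light V gene with another cell of the library made up 20%, 48.4% and 28.9% of kappa cells with both calls, a share that grows with the number of cells compared. Such cells may be clonal relatives and are not independent of each other. The pairs held by most cells were Ighv1-64 with Igkv8-30, and Ighv11-2 with Igkv14-126. The last 90 bases of their V exons (GENCODE M21 annotation, GRCm38) are shown because they carry the framework end and the start of the CDR3 loop, which differs between clones; capitals mark the last in-frame cysteine codon, which opens that loop. They lie at chr12:115507545-115507634 (minus strand), chr6:70117061-70117150 (minus strand), chr12:114048241-114048330 (minus strand) and chr6:67896553-67896642 (plus strand), in the order printed.
Ighv1-64: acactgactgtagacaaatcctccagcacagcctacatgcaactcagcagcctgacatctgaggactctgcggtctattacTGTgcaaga
Igkv8-30: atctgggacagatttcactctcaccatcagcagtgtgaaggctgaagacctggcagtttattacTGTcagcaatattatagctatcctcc
Ighv11-2: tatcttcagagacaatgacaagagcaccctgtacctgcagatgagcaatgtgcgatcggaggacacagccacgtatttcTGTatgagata
Igkv14-126: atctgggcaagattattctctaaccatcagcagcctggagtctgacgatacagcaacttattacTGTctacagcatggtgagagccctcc

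Ighv11-2 was found in IgM cells alone among the cells called. It was the heavy V gene of 3 of 33 Lztr1 knockout cells (9.09%; 1.92 to 24.3%), 10 of 175 Rit1-M90I cells (5.71%; 2.77 to 10.3%) and 2 of 102 control cells (1.96%; 0.238 to 6.90%), and each of these cells was IgM. Igkv14-126 was its light chain in 2 of the 3 Lztr1 knockout cells and in all 10 Rit1-M90I cells, while 1 of the 2 control cells carried Igkv1-135. Ighv11-2 with Igkv14-126 is a known pair of mouse B-1a cells, innate-like B cells whose antibodies bind phosphatidylcholine. Ighv1-64 was carried by 2 of 33 Lztr1 knockout cells (6.06%; 0.743 to 20.2%), 23 of 175 Rit1-M90I cells (13.1%; 8.52 to 19.1%) and 2 of 102 control cells (1.96%; 0.238 to 6.90%). The Rit1-M90I interval lay above the control interval. Of its 23 cells 22 were IgA, and 11 IgA cells paired it with Igkv8-30. Another pair, Ighv10-1 with Igkv6-15, was held by 5 Rit1-M90I cells, all IgG. In the control no pair was held by more than 3 cells, and in the Lztr1 knockout none by 3. A clone expanded in 1 animal cannot be told apart from an effect of genotype here.

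**Figure D2:**
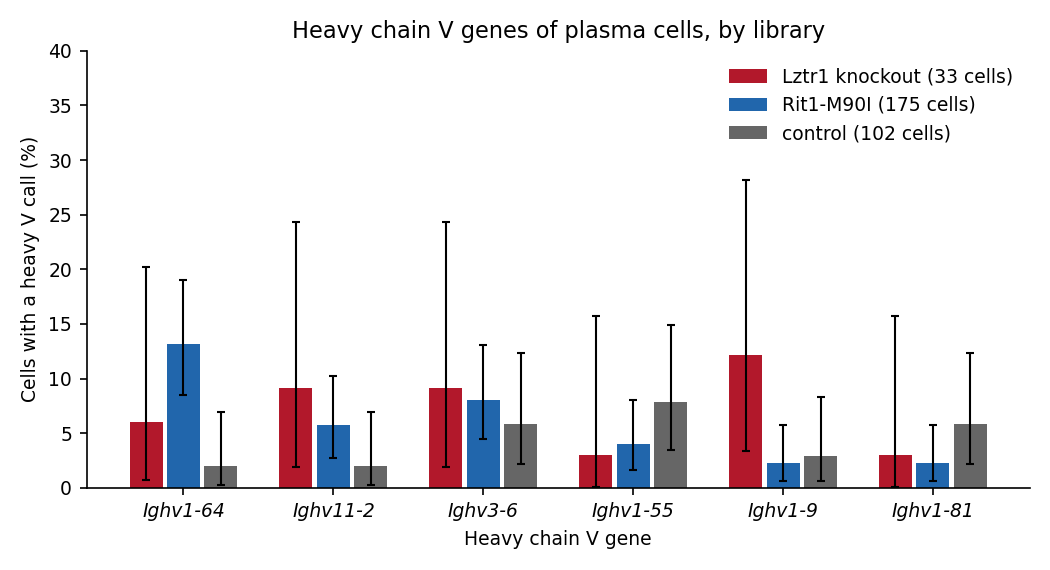
Share (%) of plasma cells with a heavy V call that used each of 6 heavy V genes, in the Lztr1 knockout (33 cells), Rit1-M90I (175 cells) and control (102 cells) libraries; lines are exact 95% binomial intervals for counting error. Ighv1-64 reaches 13.1% in Rit1-M90I against 1.96% in the control, and Ighv11-2 is seen in 3, 10 and 2 cells.

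The heavy chain classes of plasma cells differed in genes outside the immunoglobulin loci. UMIs were summed over the cells of a class in each library and tested with edgeR's quasi-likelihood test, with the library as a block. Libraries of different genotype thus served as replicates, all 3 for IgA and IgG but only Rit1-M90I and control for IgM. The 4 IgM cells of the Lztr1 knockout were under the minimum of 5 and stayed out of the fit; their values are given as description. Of 2411 genes tested, IgA against IgM gave 27 higher (1.12%) and 45 lower (1.87%) at an adjusted p under 0.05, and IgG against IgM gave 45 higher (1.87%) and 35 lower (1.45%). IgA against IgG gave 28 higher (1.16%) and 71 lower (2.94%). These counts rest heavily on the library with the most cells: without the Rit1-M90I library they were 0, 3 and 10 in all, and without the control library IgG against IgM gave 51 and IgA against IgG 59. Second-lineage cells were 10.7% of Lztr1 knockout, 20.9% of Rit1-M90I and 15.0% of control IgA cells, 11.1%, 20% and 0% of IgG cells and 0%, 7.41% and 7.14% of IgM cells. Without them IgA against IgM gave 151 genes.

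IgA cells carried more of the chemokine receptors of mucosal homing. Ccr10, the receptor for mucosal and skin chemokines, measured 256, 235 and 356 CPM in IgA cells of the Lztr1 knockout, Rit1-M90I and control libraries, 43.0, 56.3 and 127 CPM in IgG cells and 45.6, 27.5 and 15.8 CPM in IgM cells. Every IgA value lay above every IgG and IgM value. The log2 difference was 3.56 (SE 0.47) against IgM, with an edgeR adjusted p of 6.46e-05, and 1.91 (SE 0.27) against IgG, with an adjusted p of 0.000104. Cells with at least 1 Ccr10 UMI made up 67.9%, 57.6% and 72.0% of IgA cells, 22.2%, 17.1% and 40% of IgG cells and 25%, 3.70% and 7.14% of IgM cells. Ccr9, the receptor for the small intestinal chemokine CCL25, measured 74.6, 95.7 and 112 CPM in IgA cells, 0, 5.12 and 50.6 in IgG cells and 0, 0 and 31.7 in IgM cells, and was higher in IgA than in IgM (log2 3.06, edgeR adjusted p 0.0406) and than in IgG (log2 2.63, edgeR adjusted p 0.0108). Of 11 tested genes for homing and adhesion, Ccr10 and Ccr9 were higher in IgA against IgM, and the same 2 in IgA against IgG. None was lower in either. Over all genes tested, 1.12% were higher in IgA against IgM and 1.16% in IgA against IgG.

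Glipr1 and Vpreb3 were also higher in IgA than in IgM. Glipr1 measured 522, 565 and 627 CPM in IgA cells, 158, 323 and 203 in IgG cells and 91.2, 119 and 79.1 in IgM cells, a log2 difference of IgA over IgM of 2.54 (SE 0.33, edgeR adjusted p 4.74e-05) and of IgA over IgG of 1.23 (SE 0.22, edgeR adjusted p 0.00122); IgG over IgM did not pass (log2 1.31, edgeR adjusted p 0.0595). Vpreb3, a chaperone-like relative of the surrogate light chain, measured 245, 180.2 and 162 CPM in IgA cells, 229, 149 and 152 in IgG cells, and 0, 9.16 and 15.8 in IgM cells. Its level in IgM rested on 2 UMIs over all 45 cells. The log2 difference was 3.8 (SE 0.58) for IgA over IgM and 3.64 (SE 0.64) for IgG over IgM, with edgeR adjusted p of 0.000262 and 0.00112. Irf4, a transcription factor that drives plasma cell identity, was higher in IgA than in IgG (log2 0.94, edgeR adjusted p 0.0487), at 208, 177 and 189 CPM against 158, 76.8 and 88.6.

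IgG cells were set apart by Slpi, the secretory leukocyte protease inhibitor. It measured 3976, 2289 and 2048 CPM in IgA cells of the Lztr1 knockout, Rit1-M90I and control libraries, 22124, 15433 and 34695 CPM in IgG cells and 593, 751 and 285 CPM in IgM cells. The class sums did not overlap in any library, but single cells did. The highest IgA cell held 39947, 36925 and 29645 CPM in the Lztr1 knockout, Rit1-M90I and control libraries. The log2 difference was 5.23 (SE 0.36, edgeR adjusted p 2.91e-09) for IgG over IgM, 2.06 (SE 0.36, edgeR adjusted p 0.000787) for IgA over IgM and -3.17 (SE 0.25, edgeR adjusted p 2.62e-08) for IgA over IgG. The median IgA cell held 1167, 919 and 846 CPM, the median IgG cell 12837, 6609 and 34209 CPM and the median IgM cell of each library 0. The median cells thus lay in the same order as the sums. A single cell held 33.2%, 8.27% and 16.5% of the Slpi UMIs of all plasma cells in the Lztr1 knockout, Rit1-M90I and control libraries. In IgG cells single values ranged from 0 to 102743 CPM.

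Surface genes of the Ly6 family also differed, although their near-identical copies can exchange reads. Ly6c2 measured 144, 169 and 199 CPM in IgA cells, 1649, 1239.6 and 684 in IgG cells and 502, 293 and 127 in IgM cells, with a log2 difference of -2.69 (SE 0.24, edgeR adjusted p 6.89e-08) for IgA over IgG and 2.27 (SE 0.34, edgeR adjusted p 0.000203) for IgG over IgM. Ly6a, which encodes the stem cell antigen Sca-1, was lower in IgA than in IgG (log2 -1.45, edgeR adjusted p 6.58e-08), at 885, 998 and 1097 CPM against 2868, 2515 and 2684. Ly6d was lower in IgA than in either other class (log2 -1.72 against IgG and -1.63 against IgM), at 768, 509 and 412 CPM in IgA, 2208, 1614 and 1557 in IgG and 1779, 1301 and 1630.2 in IgM. Of 20 tested plasma cell surface and survival genes, 5 were lower and none higher in IgA against IgG: Ly6a, Ly6c2, Ly6d, Cd52 and Epcam. Over all genes tested 2.94% were lower. The median log2 difference of the 20 was -0.27, against 0.02 over all genes tested. Cd74, the invariant chain of MHC class II, was lower in IgA than in IgG as well (log2 -1.39, SE 0.12, edgeR adjusted p 6.58e-08), at 2543, 1814 and 2153 CPM against 6094, 4410.3 and 6281. It was the one of 3 tested MHC class II genes that passed.

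A group of genes was lower in IgA than in IgM cells. Ltb, which encodes the membrane cytokine lymphotoxin beta, measured 21.3, 21.1 and 8.73 CPM in IgA cells of the Lztr1 knockout, Rit1-M90I and control libraries, against 319, 293 and 253 CPM in IgM cells, a log2 difference of -3.95 (SE 0.50, edgeR adjusted p 4.74e-05). Selenop, a selenium-carrying secreted protein, measured 10.7, 21.1 and 15.7 CPM in IgA cells against 319, 219.9 and 174 in IgM cells (log2 -3.43, edgeR adjusted p 0.000244). Ggh, a lysosomal enzyme that trims folates, measured 26.7, 13.3 and 21 CPM against 137, 183 and 285 (log2 -3.65, edgeR adjusted p 0.000294). In each case the sum of the 4 Lztr1 knockout IgM cells, which the fit did not use, lay nearer to the IgM than to the IgA sums. These sums were small: Ltb had 7 UMIs, all in 1 of the 4 cells, and Ggh had 3 UMIs in 2 cells. Selenop had 7 UMIs spread over all 4. Chst1, a sulfotransferase that acts on carbohydrate chains, was at 0, 2.22 and 1.75 CPM in IgA cells, 3 UMIs in all, against 365, 119 and 158 CPM in IgM cells (edgeR adjusted p 0.000135). The protease gene Ctss, whose product cathepsin S trims the invariant chain, measured 319.8, 194 and 190.3 CPM in IgA against 1095, 1081 and 1139.6 CPM in IgM (log2 -2.39, edgeR adjusted p 4.1e-06).

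Genes of the B cell stage were among those lower in IgA than in IgM. Ms4a1, which encodes CD20, measured 21.3, 6.67 and 6.98 CPM in IgA against 45.6, 73.3 and 142 CPM in IgM (log2 -3.61, edgeR adjusted p 0.00934), on 1, 8 and 9 UMIs in IgM. Cd79b of the B cell receptor complex was lower too (log2 -0.96, edgeR adjusted p 0.0146). Of 18 listed B cell program genes only 4 could be tested, and these 2 passed, where 1.87% of all genes tested were lower. The coactivator gene Pou2af1 was lower in IgA and in IgG than in IgM, by log2 differences of -1.30 and -1.22, with edgeR adjusted p of 0.0009 and 0.00791. It measured 256, 277 and 243 CPM in IgA and 329.8, 236 and 291 in IgG, against 547, 641 and 586 in IgM. Jun, an immediate-early transcription factor, was lower in IgA than in IgM (log2 -2.05, edgeR adjusted p 4.1e-06), at 117, 137 and 168 CPM against 137, 568 and 696; here the 4 Lztr1 knockout IgM cells lay near the IgA values. Laptm5, a lysosomal protein gene that dampens antigen receptors, was lower in IgG than in IgM (log2 -2.66, SE 0.32, edgeR adjusted p 1.28e-05), at 71.7, 66.6 and 88.6 CPM against 319, 513 and 348.

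The IgM cells were also split by their heavy V gene, as a description. In Rit1-M90I the 10 IgM cells with Ighv11-2 held Ltb at 236 CPM and Selenop at 236 CPM, and the 9 IgM cells with another heavy V gene held 196 and 279 CPM. Ggh measured 131 and 307 CPM in these 2 groups, and Ctss 1103 and 1342 CPM. The numbers of UMIs were small, between 5 and 11 for Ltb, Selenop and Ggh in each group. In the other libraries the 2 groups differed for Ltb: it had 7 UMIs in the 3 Lztr1 knockout cells with Ighv11-2 and 0 in the 1 cell with another heavy V gene, and 4 UMIs in the 2 control cells with Ighv11-2 and 0 in the 4 cells with another. Ggh had 3 and 0 UMIs in these Lztr1 knockout groups, and 1 and 9 UMIs in those of the control.

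**Figure D3:**
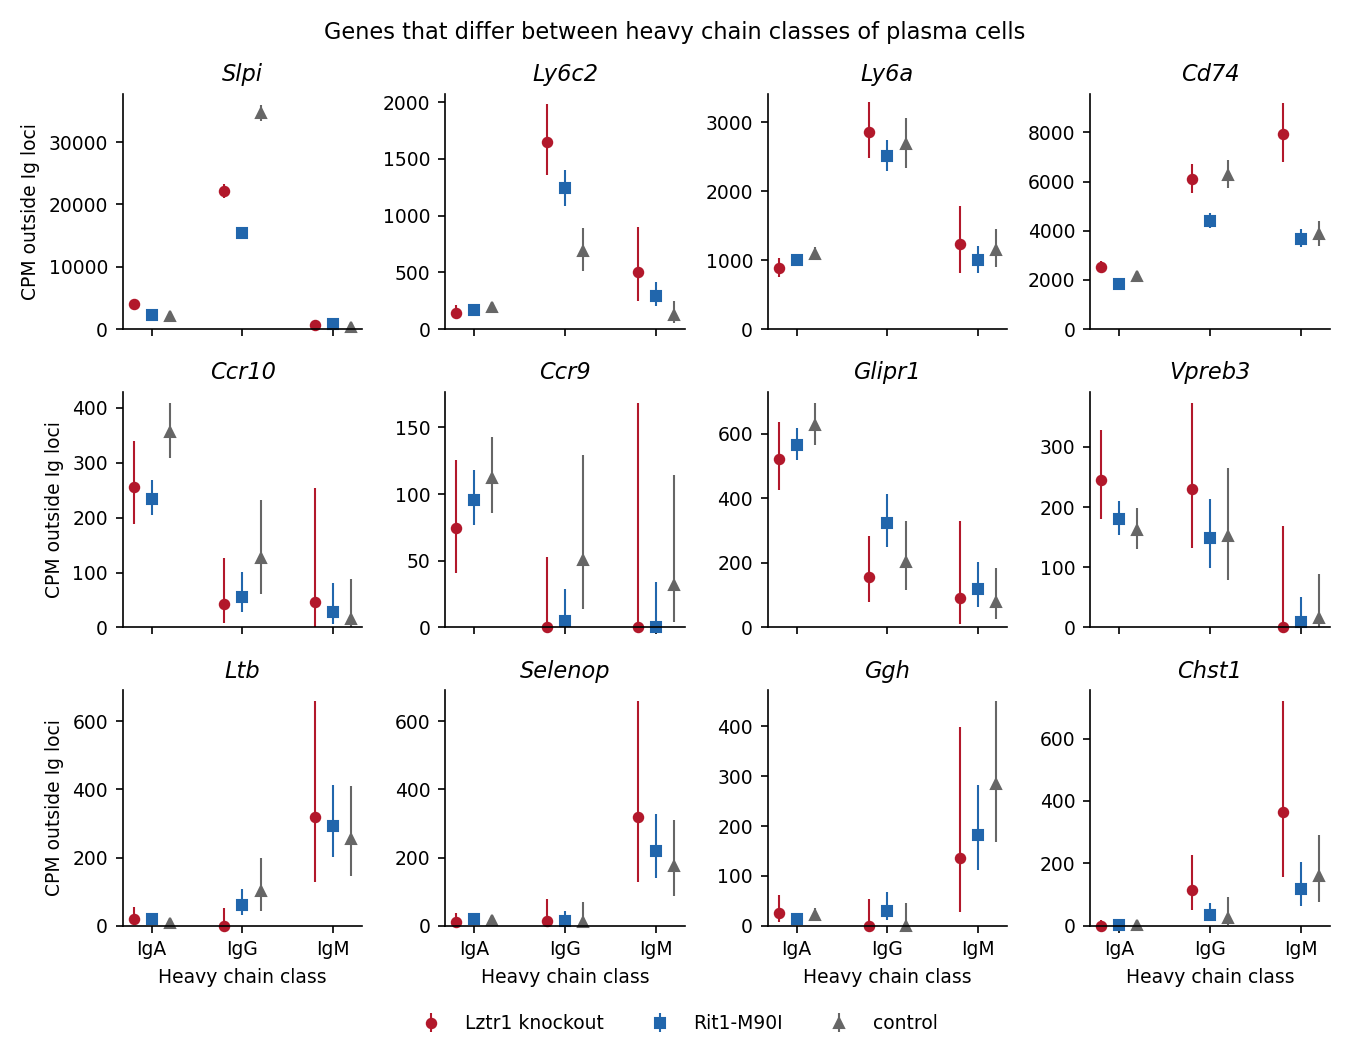
Levels (CPM outside the immunoglobulin loci, linear axes from 0) of 12 genes in IgA, IgG and IgM plasma cells of the Lztr1 knockout, Rit1-M90I and control libraries; each point is 1 library's sum and each line its exact 95% counting interval. Slpi, Ly6c2 and Cd74 lie highest in IgG, except that the Lztr1 knockout IgM sum of 4 cells is high for Cd74; Ccr10, Ccr9 and Glipr1 lie highest in IgA, and Ltb, Selenop, Ggh and Chst1 in IgM.

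Several of the other genes with the largest class differences could not be followed without second-lineage cells. Prss34 and Mcpt8, proteases of basophils, measured 696 and 469 CPM in Rit1-M90I IgA cells, 1859 and 1368 CPM in its IgG cells and 27.5 and 64.1 CPM in its IgM cells, while the highest value of either in a class of the other libraries was 50.6 CPM. Elane, the neutrophil elastase, F13a1 and Cd34, Emb and Zeb2, the cell cycle genes Hist1h1b, H2afx and Pclaf, Apoe and Prrc2b were likewise named as extremes. Elane had an edgeR adjusted p of 0.442 once second-lineage cells were left out, and the others then fell under the filter on low counts and were not tested. Elane, Prss34 and Mcpt8 were themselves among the markers that chose those cells, so their loss was built in. Ccl5, Oosp1, Pon3, Rasgrp3, Cd200, Btla, Lpp, Atp1b1, Selenom, Fkbp11 and 1110008P14Rik completed the extremes, and all of these but Ccl5 remained at an edgeR adjusted p under 0.05 without those cells. Ms4a1 was among the lowest in IgA against IgG too (log2 -2.72, edgeR adjusted p 0.0302), with an adjusted p of 0.0785 without those cells.

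Genes of the ER folding machinery were higher in IgG than in IgM cells. Hsp90b1, the ER form of Hsp90, measured 5793, 5322 and 4558 CPM in IgG cells of the Lztr1 knockout, Rit1-M90I and control libraries, against 2372, 1695 and 1899 CPM in IgM cells, a log2 difference of 1.48 (SE 0.14, edgeR adjusted p 1.04e-06). Fkbp11, a prolyl isomerase of secretory cells, measured 373, 574 and 431 CPM in IgG against 319, 55.0 and 63.3 CPM in IgM (log2 3.10, SE 0.39, edgeR adjusted p 1.87e-05), and in the 4 Lztr1 knockout IgM cells it lay near the IgG level. Selenom, an ER selenoprotein, rose by a log2 of 2.37 (edgeR adjusted p 0.00048). Of 33 tested chaperone and folding genes 14 were higher in IgG, among them Mzb1, which the definition of the cells used, and 1 was lower. Of all genes tested, 1.87% were higher and 1.45% lower. The median log2 difference of the 33 was 0.78, against -0.04 over all genes tested. The gene lower in IgG was Txndc5, a disulfide isomerase (log2 -0.64, edgeR adjusted p 0.0316), at 2581, 1357 and 1621 CPM against 5153.5, 2272 and 2722. Without the Rit1-M90I library 1 gene of the list was higher, without the control library 8 and without the Lztr1 knockout 15.

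Over all genes tested, 2.94% were lower and 1.16% higher in IgA than in IgG. The same list was lower in IgA than in IgG, with 13 of 33 genes lower and none higher (median log2 -0.57, against 0.02 over all genes tested). Without second-lineage cells 5 were lower, and without the Rit1-M90I library 1. Summed over the list without Mzb1, IgA cells held 19477, 17925 and 19672 CPM, IgG cells 26296, 26236 and 26135 CPM, and IgM cells 21617, 14649 and 16729 CPM. The IgG sums lay above all others, and the highest IgM sum was that of the 4 Lztr1 knockout cells. IgA cells were nearer to IgM, with 3 of 33 genes higher and none lower (median log2 0.19). In that comparison 1.12% of all genes tested were higher and 1.87% lower. Other steps of secretion were read against the 1.87% of all genes that were higher in IgG than in IgM. Of 19 translocation and signal peptide genes 6 were higher and none lower (median log2 0.65), led by Ssr4, a subunit of the translocon-associated complex, at 3111, 4000.5 and 4647 CPM in IgG against 1961, 1612 and 1171 in IgM. Of 16 tested degradation and stress response genes 2 were higher, Edem1 and Edem2, which direct misfolded glycoproteins to degradation. Of 23 Golgi and traffic genes 1 was higher, although their median log2 difference was 0.67.

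**Figure D4:**
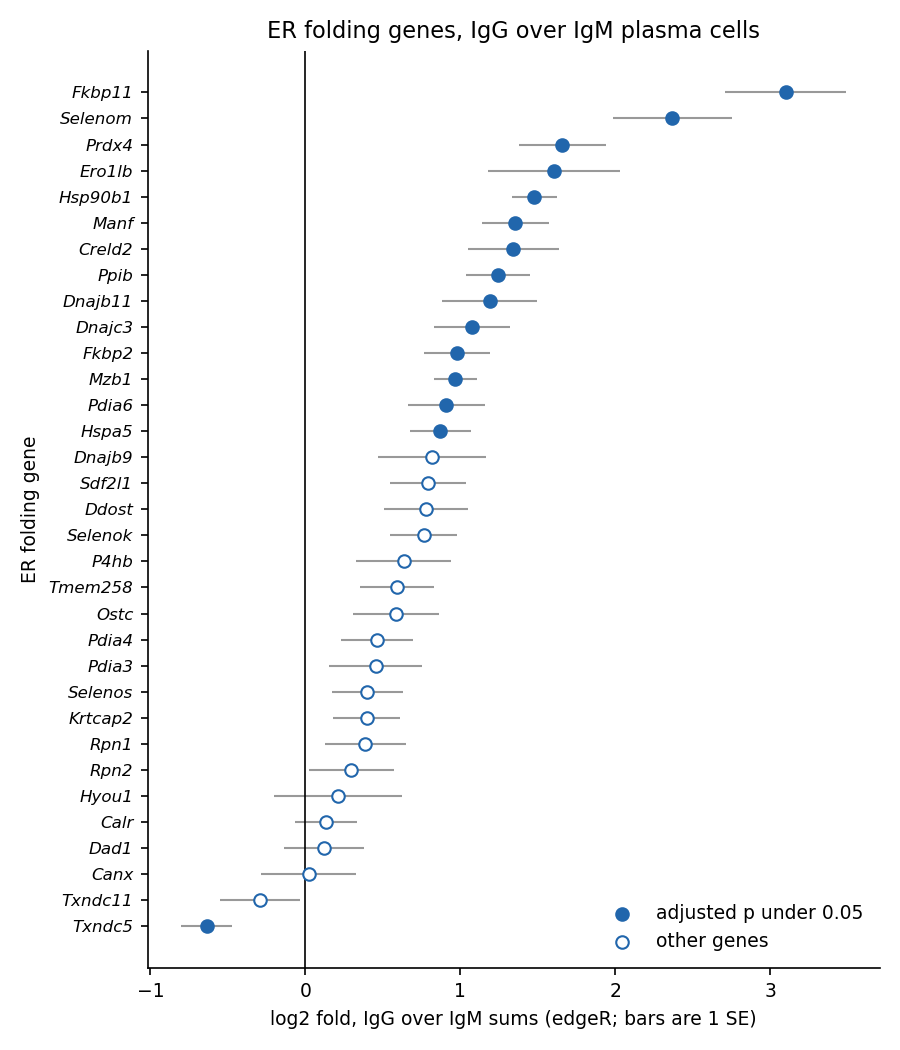
log2 difference, IgG over IgM plasma cells, of the 33 tested ER chaperone and folding genes, one row each; points are edgeR estimates from sums per library and class, lines are 1 SE, and filled points have an adjusted p under 0.05. Filled points number 14 to the right of 0 and 1 to the left, and Fkbp11 lies farthest right at 3.10.

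Promoters of several of these genes hold the ER stress response element, the site known to bind ATF6 and XBP1 with NF-Y. The motif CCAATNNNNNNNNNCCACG was searched on both strands in windows of 300 bases, 250 before and 50 after each gene start in RefSeq. It was present in 37 of 27025 genes (0.137%) and in 8 of the 30 folding genes with a promoter entry (26.7%): Hspa5, Hsp90b1, Calr, Canx, Pdia6, Dnajc3, Creld2 and Ero1lb. It was also present in 2 of 17 degradation genes (11.8%) and in none of the 16 translocation and 23 Golgi genes with an entry. A shorter form of the site, known as ERSE-II, was present in 12 of all genes (0.0444%) and in 2 of the 30 folding genes, and no site overlapped another. A match is a description of these letters and does not show binding. The element is named for the ER stress response, so its share among ER folding genes is description and was not tested. Of the 8 folding genes with the first motif, 6 were higher in IgG than in IgM cells. So were 14 of all 33 tested folding genes and 1.87% of all genes tested, and a link of the motif with the class difference was not tested. The stretches of these 6 are shown with the ends of each site in capitals (GRCm38.p6, RefSeq). They lie at chr2:34772013-34772055 (plus), chr10:86705521-86705668 (minus), chr12:17266479-17266521 (plus), chr14:118937815-118937857 (plus), chr15:88819508-88819550 (plus) and chr13:12565670-12565712 (plus), in the order printed.
Hspa5: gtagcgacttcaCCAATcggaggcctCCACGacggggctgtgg
Hsp90b1: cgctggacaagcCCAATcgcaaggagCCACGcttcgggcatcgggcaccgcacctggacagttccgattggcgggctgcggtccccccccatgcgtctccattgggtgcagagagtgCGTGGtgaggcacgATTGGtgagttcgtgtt
Pdia6: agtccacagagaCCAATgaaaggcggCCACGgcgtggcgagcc
Dnajc3: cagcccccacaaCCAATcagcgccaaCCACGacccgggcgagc
Creld2: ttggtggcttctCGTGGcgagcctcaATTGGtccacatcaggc
Ero1lb: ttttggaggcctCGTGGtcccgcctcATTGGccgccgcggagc

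Hsp90b1 holds 2 such sites, 212 and 107 bases before its start, and the other 5 genes hold 1 each, between 65 and 201 bases before it. In Hspa5, Pdia6 and Dnajc3 the site lies on the strand of the gene, and in Creld2 and Ero1lb on the opposite strand. Hspa5, the ER chaperone BiP, measured 1133, 1368 and 1570.1 CPM in IgG cells against 775, 660 and 902 CPM in IgM cells (log2 0.87, edgeR adjusted p 0.0128). Dnajc3, a cochaperone of BiP, measured 746, 840.1 and 912 CPM against 593, 329.8 and 459 (log2 1.08, edgeR adjusted p 0.0128). Creld2 measured 616, 789 and 456 CPM against 365, 238 and 269 (log2 1.34, edgeR adjusted p 0.00938). Calr and Canx, the lectin chaperones, hold the motif too and did not pass the test, at 1333, 1065 and 785 CPM in IgG against 1140.2, 779 and 1013 CPM in IgM for Calr. In the control library Calr was thus lower in IgG than in IgM.

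Between genotypes, most plasma cell genes lay close together. Genes were compared as log2 of mutant over control with 20 CPM added to both, among genes of at least 100 CPM in one of the libraries and at least 20 UMIs in both together, and a gene was counted past 1.5-fold. In the Lztr1 knockout 41 of 1345 genes were higher (3.05%) and 58 lower (4.31%); in Rit1-M90I 12 of 1294 were higher (0.927%) and 6 lower (0.464%). The median log2 ratio was -0.03 and -0.02. The larger count in the Lztr1 knockout stands beside its 42 cells and 284683 UMIs outside the immunoglobulin loci, against 224 cells and 1234783 such UMIs in Rit1-M90I and 129 cells and 714858 in the control. If all UMIs were used for scaling, the counts were 12 and 8 in the Lztr1 knockout and 5 and 1 in Rit1-M90I. Immunoglobulin UMIs then lowered every CPM, while the filter of 100 CPM and the 20 CPM added stayed as they were. Fewer genes thus passed the filter and ratios shrank more, so these counts are not like for like with those above. Both mutants were set against the same control.

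Counts of secretory genes past 1.5-fold were near those of all genes. Of 33 measured folding genes, 1 was past 1.5-fold higher in the Lztr1 knockout, where 3.05% of all genes were, and none lower (median log2 0.02), and of 31 in Rit1-M90I none was past it in either direction (median log2 -0.07). The gene past it was Ero1lb, an oxidase that drives disulfide formation, at 155 CPM in the Lztr1 knockout, 87.5 in Rit1-M90I and 76.9 in the control. Of 18 translocation genes and 20 nuclear genes of oxidative phosphorylation none was past 1.5-fold in either mutant. No gene of the MAPK output list passed the filter, and neither of 2 measured Ras GTPase genes, Rap1a and Rap1b, was past 1.5-fold. Among 12 measured plasma cell regulators 2 were past it in the Lztr1 knockout, both higher, and none in Rit1-M90I. Creb3l2, a transcription factor of secretory cells and one of the 2, measured 176, 149 and 102 CPM. Of the interferon-stimulated genes none of 6 measured was past it in the Lztr1 knockout, and 1 of 5 in Rit1-M90I, Ifi27l2a, was lower.

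Some of the lowest ratios of the Lztr1 knockout belonged to genes of other lineages. Car1, a red cell carbonic anhydrase, measured 17.6 CPM in Lztr1 knockout plasma cells and 434 in control plasma cells, of which 43.9% came from 1 control cell. Car1 was among the markers that chose the second-lineage cells, so a fall of its level without them was built in. Its log2 ratio was -3.59 over all plasma cells and -0.58 without second-lineage cells. Car2 likewise had a log2 ratio of -1.80 over all cells and 0.02 without them, Blvrb -1.56 and -0.50, and Cks2 -1.49 and -0.03. Apoe had ratios of -2.10 and -1.66. Ratios about as low without those cells were seen for Mt1 and Itm2c. Mt1, a metal-binding metallothionein, measured 109 CPM (74.0 to 155) in the Lztr1 knockout against 306 (267 to 349.7) in the control, with log2 ratios of -1.34 over all cells and -1.30 without second-lineage cells. Itm2c, a membrane protein gene, measured 59.7 CPM against 136, with ratios of -0.97 and -0.89. Idh3g, a subunit of a mitochondrial dehydrogenase, measured 49.2 against 116 CPM, with ratios of -0.98 over all cells and -0.56 without second-lineage cells, where it was no longer past 1.5-fold.

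Among the highest ratios of the Lztr1 knockout, Dntt, the terminal transferase of lymphoid progenitors, measured 179 CPM against 32.2 CPM in the control, with 35.3% of its UMIs in 1 cell and a UMI in 11.9% of cells. Cox6a2, a muscle-type cytochrome oxidase subunit also known from plasmacytoid dendritic cells, measured 133 against 22.4 CPM, with 60.5% of its UMIs in 1 cell. Tsix, the antisense partner of Xist, measured 130.0 CPM in the Lztr1 knockout, 80.2 in Rit1-M90I and 36.4 in the control; the strand used for counting is not stated in the sources used here, so its reads cannot be told apart from those of Xist. More widely spread among cells were Cd37, a B lineage tetraspanin, at 165 against 72.7 CPM (log2 1.0, and 1.04 without second-lineage cells), and Rapgef1, an activator of Rap GTPases, at 102 against 42.0 CPM (0.98 and 1.34). Rfc1, a clamp loader subunit of DNA replication, measured 141 against 50.4 CPM (1.19 and 0.94). Ly6c2 measured 566 against 246 CPM, and its log2 ratio was 1.14 over all cells but -0.12 among IgA cells without a second lineage; the Lztr1 knockout held 21.4% IgG cells against 11.6% in the control. Cd34 had ratios of 1.06 and, without second-lineage cells, -0.04. Ubb, a ubiquitin gene with near-identical copies, measured 3516 CPM in the Lztr1 knockout, 1556 in Rit1-M90I and 1823 in the control.

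In Rit1-M90I the highest ratios were those of basophil genes. Prss34 measured 805 CPM in Rit1-M90I plasma cells and 18.2 in control plasma cells, and Mcpt8 564 and 14.0 CPM. Their log2 ratios of 4.43 and 4.1 were 0.75 and 0.86 without second-lineage cells, which both genes had helped to choose. Tyrobp and Fcer1g, adaptors of myeloid and basophil receptors, had ratios of 0.90 and 0.72, and 1.11 and 0.07 without those cells. Ratios that stayed near their value without second-lineage cells were those of Pdcd4, an inhibitor of translation initiation, at 215 against 126 CPM (0.69 and 0.68), Cmpk1, a nucleotide kinase, at 187 against 113 CPM (0.64 and 0.79), Nucks1 at 219 against 134 CPM (0.63 and 0.66) and Wdr43, a ribosome biogenesis factor, at 112 against 64.4 CPM (0.64 and 0.68).

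The lowest Rit1-M90I ratios were small. Ccr10 measured 184 CPM (161 to 209) in Rit1-M90I against 301 (262 to 344) in the control, a log2 ratio of -0.65, and in the Lztr1 knockout 193 CPM, a log2 ratio of -0.59. Among IgA cells without a second lineage the ratios were -0.67 in Rit1-M90I and -0.61 in the Lztr1 knockout, about as large as over all classes. Asns, which makes asparagine, measured 66.7 CPM in the Lztr1 knockout, 70.5 in Rit1-M90I and 123 in the control. Both comparisons use the same control cells, so these ratios are not independent of each other. Ifi27l2a, an interferon-stimulated gene, measured 147 against 271 CPM in the control (log2 -0.81), and Cd93, a receptor that mouse plasma cells need to persist in marrow, 90.7 against 157 CPM (log2 -0.67). Lax1, an adaptor that restrains lymphocyte signals, measured 118 against 186 CPM, Evi2a 71.3 against 112 CPM and Rnh1, the ribonuclease inhibitor, 64.0 against 101 CPM. Ly6k lay lowest of 18 plasma cell surface genes in both mutants, at 17.6, 29.2 and 109 CPM, with all 5 UMIs of the Lztr1 knockout in 1 cell and 44.4% of those of Rit1-M90I in 1 cell.

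**Figure D5:**
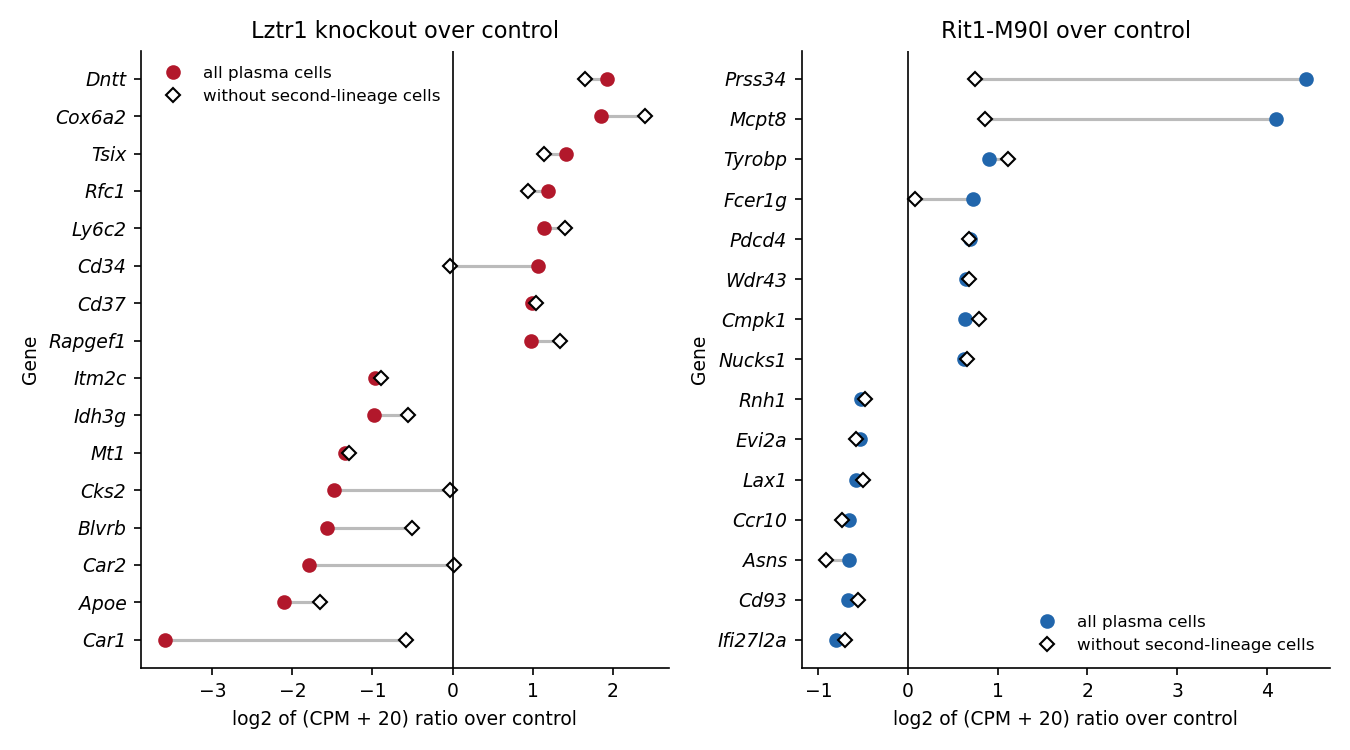
log2 ratios of (CPM + 20), Lztr1 knockout over control (left) and Rit1-M90I over control (right), for the genes with the highest and lowest ratios of each that are described in the text; filled circles are all plasma cells and open diamonds the plasma cells without second-lineage cells. Car1 moves from -3.59 to -0.58 and Prss34 from 4.43 to 0.75, while Mt1, Cd37, Ccr10 and Pdcd4 stay near their values. Car1, Prss34 and Mcpt8 were among the markers that chose the cells left out, so a fall of their levels was built in.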

How the data were processed

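The files the authors deposited hold whole-number UMI counts with no normalization, for 32285 genes and every called barcode. Per the submitters' processing notes, the build was mm10, and Cell Ranger 6.1.1 and Seurat 4.1.0 were used; cell calling settings and the strand of counting were not stated there. From the counts, plasma cells were chosen by the stated rule, and the 392 genes of the immunoglobulin loci were left out of CPM totals and of tests. Doublets were called with scrublet (scanpy 1.11.5) and kept, with removal as an alternative. Class sums per library were tested with edgeR 4.0.16 (R 4.3.3; TMM scaling, filterByExpr, quasi-likelihood, Benjamini-Hochberg threshold 0.05, 8 sums, 3 residual degrees of freedom), after a test on simulated data; DESeq2 1.42.0 was an alternative. Shares have exact binomial intervals and share ratios log-scale intervals, at 95%. Sequences came from RefSeq and GENCODE tables. Members, gene lists and tests were chosen with earlier results of these data known. Named genes were the 8 highest and 8 lowest of each comparison, with a UMI in at least 10% of cells for ratios between genotypes, and the extremes of each list described; other genes were chosen after their values were seen. Leaving out second-lineage cells was an alternative added after seeing the data. One gene that this rule names is not reported here.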

Additional observations from a re-analysis of the deposited data

How the results depend on the processing

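The Lztr1 knockout gave 42 plasma cells, 4 of them IgM, which limits what its classes can show. The Rit1-M90I share was 2.66% with the stricter cell filter and 1.82% without second-lineage cells, and the other 67 of 69 alternatives for shares of plasma cells and classes moved less than their intervals. No paired analysis was possible between genotypes because each genotype has 1 library; between classes the library was the block. Lztr1 knockout counts of genes past 1.5-fold higher and lower (41 and 58) were 12 and 8 with CPM over all UMIs, 23 and 34 with a pseudocount of 50, 407 and 564 with no filter on low genes and 98 and 119 in IgA cells without a second lineage, and 72 were higher with cells weighted equally. Rit1-M90I counts (12 and 6) were 5 and 1, 5 higher, 118 and 39, 23 and 28, and 23 and 15 under these settings in the same order, with 11 lower at a pseudocount of 5 and 13 lower without second-lineage cells. Class counts were 36 for IgA against IgM and 42 for IgA against IgG with DESeq2, against 72 and 99; 151 for IgA against IgM without second-lineage cells; and 61 and 59 for IgA against IgG with no library term and with doublets removed. Leaving out 1 library gave 0 to 93, 3 to 118 and 10 to 88 genes for IgA against IgM, IgG against IgM and IgA against IgG. The 0 came from edgeR without the Rit1-M90I library, where 128 genes had an unadjusted p under 0.05. Of the named ratios, 4 changed sign: in the Lztr1 knockout, Car2 (0.025) and Cd34 (-0.037) without second-lineage cells, and Car2 (0.38) and Ly6c2 (-0.12) in IgA cells without them. Of 418 alternatives for named class genes, 79 lost the call, 30 of them without the Rit1-M90I library, and none changed direction. The causes were not tested.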
